A study of Mus musculus with 12 samples.

Results

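The 8 genes of macrophage fusion and of the osteoclast-like programme described here were followed through gonadal white adipose tissue (GWAT): Tm4sf19, Dcstamp, Ocstamp, Atp6v0d2, Ctsk, Acp5, Oscar and Nfatc1. They were taken by gene symbol from the gene count table, in which 8 of 8 were found among 55281 genes. Tm4sf19 was chosen by its measured rise, which was among the largest in these data, so its values are given as a description with no test. The other members were listed by name with earlier results of these data known, so their choice was not independent of the data. Of those 7, Oscar did not pass the filter on low counts, which left 6 members tested.

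The libraries came from male mice with floxed Hoip alleles (Hoip, also called Rnf31, encodes the catalytic subunit of the linear ubiquitin chain assembly complex). Control mice (WT) were Hoip fl/fl AdipoQ.Cre-, and HoipA-KO mice were Hoip fl/fl AdipoQ.Cre+, in which the adiponectin promoter drives Cre in mature adipocytes and not in macrophages. All 4 groups therefore carried the floxed alleles. From 6 weeks of age the mice were fed either a control diet (CD, 14% fat) or a high-fat diet (HFD, 60% fat) for 16 weeks, and they were 22 to 24 weeks old at collection. Each group had 3 libraries, and each library pooled the RNA of 3 mice, so the spread reported is between pools.

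Osteoclasts are bone-resorbing giant cells that form when macrophage precursors fuse. Their differentiation is driven by the cytokine RANKL through its receptor RANK, together with CSF1 and co-stimulation through ITAM-bearing adaptors, and it converges on the transcription factor NFATc1. Part of the same set of genes is also used outside bone by multinucleated and lipid-laden macrophages, which gather around dying adipocytes in fat. Among the members, Dcstamp and Ocstamp encode multi-pass membrane proteins needed for cell fusion, and Tm4sf19 encodes a tetraspan protein of the L6 family. Atp6v0d2 encodes a d subunit of the vacuolar proton pump (V-ATPase). Ctsk encodes cathepsin K, a collagen-degrading protease, and Acp5 encodes tartrate-resistant acid phosphatase, the classical osteoclast stain. Oscar encodes an activating immune receptor that binds collagen, and Nfatc1 encodes the transcription factor itself.

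The sequences before the transcription start are shown for Tm4sf19 and Ctsk, whose levels rose and fell together across the libraries, and for Acp5, whose level did not follow them. RefSeq promoter windows of build GRCm38.p6 matched 4 of the 8 members, Oscar being the other one, and no window is given for Dcstamp, Ocstamp, Atp6v0d2 and Nfatc1. Each sequence holds the 250 bases before an annotated start, 5′ to 3′ on the strand of the gene. The Tm4sf19 window lies at chr16:32400256-32400505 on the plus strand, the Ctsk window at chr3:95498960-95499209 on the plus strand, and the Acp5 window at chr9:22130599-22130848 on the minus strand. Acp5 has 3 annotated starts in this table and the deposited gene counts do not tell them apart. The Acp5 window shown belongs to the most downstream of them. Capitals mark matches to any of the motifs searched.
Tm4sf19: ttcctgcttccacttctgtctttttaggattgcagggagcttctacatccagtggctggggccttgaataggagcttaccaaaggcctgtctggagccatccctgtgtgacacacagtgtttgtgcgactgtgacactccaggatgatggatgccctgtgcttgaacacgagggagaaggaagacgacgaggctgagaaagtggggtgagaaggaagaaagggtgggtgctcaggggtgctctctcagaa
Ctsk: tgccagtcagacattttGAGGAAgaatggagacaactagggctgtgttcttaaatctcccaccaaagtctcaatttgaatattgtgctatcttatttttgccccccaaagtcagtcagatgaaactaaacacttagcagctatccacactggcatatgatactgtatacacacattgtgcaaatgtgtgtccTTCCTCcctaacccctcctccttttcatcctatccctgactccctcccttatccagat
Acp5: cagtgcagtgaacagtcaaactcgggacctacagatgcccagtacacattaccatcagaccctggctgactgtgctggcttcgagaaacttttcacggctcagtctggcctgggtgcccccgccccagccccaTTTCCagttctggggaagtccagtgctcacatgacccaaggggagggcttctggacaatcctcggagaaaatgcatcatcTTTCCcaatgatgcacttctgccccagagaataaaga

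The motifs were searched on both strands as exact letters: GGAAA, the core bound by NFAT factors; GAGGAA, a core bound by the macrophage ETS factor PU.1; TGANTCA, bound by AP-1; and CACGTG, the E-box bound by MITF and TFE factors. A GAGGAA followed by A also contains GGAAA, but the matches in these windows do not overlap. Ctsk held GAGGAA at 2 positions, at -233 and -58 from the start. The Acp5 window shown held GGAAA at 2 positions, at -117 and -37, and the Oscar window held GGAAA at 3 positions and GAGGAA at 1. The windows of the other Acp5 starts, not shown, held GGAAA at -41 and at -167 respectively. None of the 4 motifs occurred in the Tm4sf19 window. Over all 32851 promoter windows of this length, GGAAA occurred in 55.6%, GAGGAA in 23.3%, TGANTCA in 6.75% and CACGTG in 6.02%, so the matches found are of common letters.

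The libraries held 30513500 to 60540260 estimated counts assigned to genes. Levels are CPM values (counts scaled to library size) scaled over all 12 libraries, and 3 counts, the level treated as the detection floor, correspond to 0.0533 to 0.0996 CPM. Across genes, replicates correlated at 0.971 or above within WT HFD, HoipA-KO CD and HoipA-KO HFD, but at 0.785 to 0.907 within WT CD. WT CD replicate 3 held 6737 CPM of summed male germ cell markers (Prm1, Prm2, Tnp1, Tnp2, Acrv1), against 15.0 and 218 CPM in replicates 1 and 2. WT CD replicate 2 held 15808 CPM of summed epididymal markers. HoipA-KO HFD replicates 1 and 3 held 1311 and 54.1 CPM of these, HoipA-KO CD replicate 3 held 107 CPM, and every other library at most 5.92 CPM. The fold changes and tests below used 11 libraries, without WT CD replicate 3, and where the call of a named gene differed with all 12, that value is given. Rnf31 itself stood at 12.8 to 21.2 CPM in WT CD and 17.7 to 21.8 CPM in HoipA-KO CD, so the gene-level counts of whole tissue did not show the deletion. "Adjusted p" below is the p of the quasi-likelihood test of edgeR, adjusted by Benjamini-Hochberg over all 18427 genes. "SE" is derived from the same test, as the absolute log2 fold change divided by the square root of its F statistic.

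The fusion genes were at or below 1.22 CPM in lean control fat and rose more than 30-fold, where tested, in lean HoipA-KO fat. Tm4sf19 measured 0.0487, 0.217 and 0.854 CPM in WT CD replicates 1, 2 and 3, which were 2, 10 and 46 counts. It measured 38.0, 55.7 and 19.8 CPM in HoipA-KO CD, 4.25, 11.7 and 25.3 CPM in WT HFD and 14.5, 52.3 and 21.1 CPM in HoipA-KO HFD. Every WT CD library lay below every other library, while the remaining 3 groups overlapped one another. The order of the group means was WT CD (0.373 CPM ± 0.425), WT HFD (13.7 ± 10.7), HoipA-KO HFD (29.3 ± 20.2) and HoipA-KO CD (37.8 ± 17.9; SD, n = 3 for each), and of the neighbours in this order WT CD and WT HFD alone were separated by their libraries.

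The fitted log2 fold change of Tm4sf19 in HoipA-KO against WT on CD was 8.14 with 11 libraries and 6.62 with all 12, a difference set by the 46 counts of WT CD replicate 3. By size this was the 15th largest rise among 18427 genes. On HFD the log2 fold change was 1.12, which ranked 1910th. HFD against CD in WT gave a log2 fold change of 6.64 with 11 libraries, the 21st largest rise in that comparison, and 5.16 with all 12, whereas in HoipA-KO the diet difference was -0.38. With so few counts in WT CD, the size of the fitted folds depends on the small prior count that the fit adds. The male germ cell markers were also highest in WT CD replicate 3, and their part in the Tm4sf19 count of that library was not tested.

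Dcstamp measured 0.292, 1.22 and 0.260 CPM in WT CD, 24.6, 43.2 and 22.3 CPM in HoipA-KO CD, 2.59, 5.77 and 10.8 CPM in WT HFD and 7.56, 27.2 and 18.4 CPM in HoipA-KO HFD. The HoipA-KO CD libraries lay above all WT libraries on either diet, and the genotypes overlapped on HFD. In HoipA-KO against WT on CD, Dcstamp was 40.8-fold higher (log2 5.35, SE 0.93, adjusted p = 0.00227). On HFD the log2 difference was 1.49 (SE 0.65, adjusted p = 0.148) and did not pass the test. HFD against CD in WT gave a log2 difference of 3.09 (SE 0.84, adjusted p = 0.0384), a call that was lost when any of 7 of the 11 libraries was left out, among them WT CD replicates 1 and 2 (2.43, adjusted p = 0.0909, and 4.46, adjusted p = 0.0647).

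Ocstamp, the partner of Dcstamp in fusion, was the least abundant per kilobase of the members that passed the filter. Its counts in WT CD were 5, 10 and 10 (0.122, 0.217 and 0.186 CPM), and its levels were 5.01, 7.56 and 5.22 CPM in HoipA-KO CD, 1.46, 1.46 and 1.99 CPM in WT HFD and 2.28, 5.11 and 2.65 CPM in HoipA-KO HFD. The replicates were close together in WT CD, WT HFD and HoipA-KO CD, and HoipA-KO lay above WT on both diets without overlap. The rise on CD was 35.5-fold (log2 5.15, SE 0.54, adjusted p = 0.000452). On HFD the log2 difference was 1.05 (SE 0.38, adjusted p = 0.0929), which edgeR did not call although the libraries were separate, and which DESeq2 called (adjusted p = 0.0335). The diet difference in WT was 3.26 on the log2 scale (SE 0.50, adjusted p = 0.00658).

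**Figure D1:**
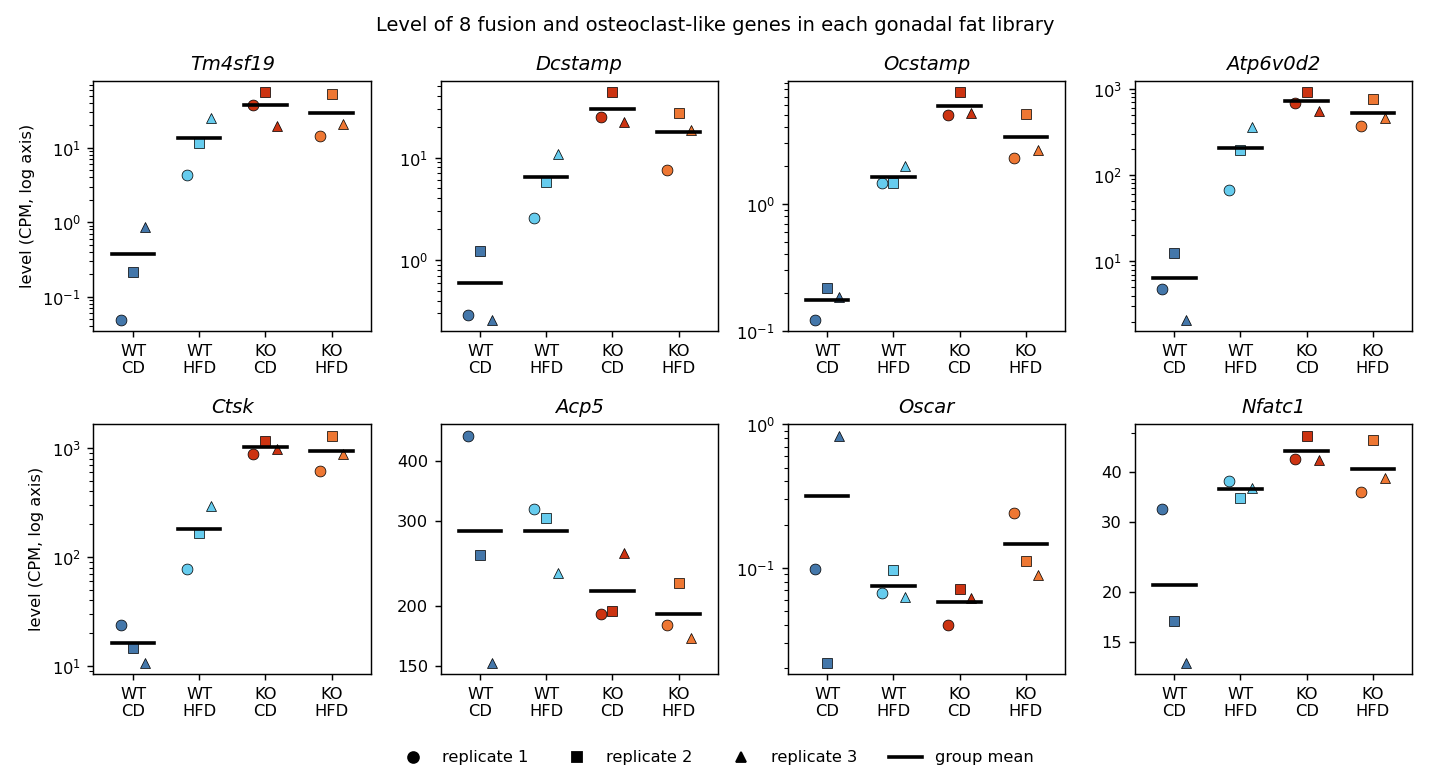
Level of each member in every library, in CPM on log axes that differ between panels; points are libraries, their shape is the replicate, and bars are group means (n = 3). In Tm4sf19, Dcstamp, Ocstamp, Atp6v0d2 and Ctsk the WT CD libraries sit below all others, Nfatc1 shows the same order over a far smaller range, and Acp5 and Oscar do not follow it.

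The proton pump subunit and the collagenase were the most abundant members that rose. Atp6v0d2 measured 4.80, 12.5 and 2.10 CPM in WT CD, 685, 905 and 553 CPM in HoipA-KO CD, 67.0, 194 and 358 CPM in WT HFD and 372, 755 and 458 CPM in HoipA-KO HFD. WT CD was separate from every other group, and HoipA-KO lay above WT on each diet, on HFD by the narrow margin between 358 and 372 CPM. Atp6v0d2 rose 85.2-fold in HoipA-KO on CD (log2 6.41, SE 0.86, adjusted p = 0.000763) and 24.0-fold with HFD in WT (log2 4.59, SE 0.79, adjusted p = 0.00796). The genotype difference on HFD was 1.38 on the log2 scale (SE 0.58, adjusted p = 0.136), not called by edgeR and called by DESeq2 (adjusted p = 0.0459).

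Ctsk measured 23.8, 14.7 and 10.7 CPM in WT CD, 890, 1170 and 990 CPM in HoipA-KO CD, 77.9, 167 and 293 CPM in WT HFD and 615, 1303 and 888 CPM in HoipA-KO HFD. Both HoipA-KO groups lay above both WT groups without overlap, and the HoipA-KO groups overlapped each other. On CD the rise in HoipA-KO was 54.5-fold (log2 5.77, SE 0.66, adjusted p = 0.000495). Ctsk was the 1 member called on HFD, at 5.29-fold (log2 2.40, SE 0.47, adjusted p = 0.0172), and the call was lost without WT HFD replicate 1 (2.04, adjusted p = 0.0534), WT HFD replicate 2 (2.35, adjusted p = 0.0749) or HoipA-KO HFD replicate 2 (2.07, adjusted p = 0.0643). In WT, HFD raised Ctsk 9.40-fold (log2 3.23, SE 0.58, adjusted p = 0.0089), and without WT CD replicate 2 the adjusted p was 0.0565.

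Acp5, the phosphatase that stains osteoclasts, did not rise in any comparison. It measured 452, 256 and 152 CPM in WT CD, 193, 195 and 258 CPM in HoipA-KO CD, 318, 305 and 235 CPM in WT HFD and 182, 223 and 171 CPM in HoipA-KO HFD. WT CD alone spanned a wider range than the other 3 groups together, and on HFD the HoipA-KO libraries lay below the WT ones. The log2 difference between genotypes was -0.68 on CD (SE 0.26, adjusted p = 0.0664), and on HFD it was -0.55 (SE 0.24, adjusted p = 0.144). The value on CD moved with the choice of WT CD libraries, being -1.03 (adjusted p = 0.0118) without replicate 2, -0.21 (adjusted p = 0.529) without replicate 1, and 0.11 (adjusted p = 0.758) with replicates 2 and 3 as controls. The lower level of Acp5 on CD was also called without HoipA-KO CD replicate 3 (-0.90, adjusted p = 0.0317), without WT HFD replicate 3, HoipA-KO HFD replicate 1 or HoipA-KO HFD replicate 3 (adjusted p = 0.038, 0.0428 and 0.0455), with protein-coding genes alone (adjusted p = 0.0269), with at least 10 counts in every library (adjusted p = 0.0361), with DESeq2 size factors (adjusted p = 0.0499) and by DESeq2 (adjusted p = 0.0209).

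Nfatc1 had the smallest change among the called members. It measured 32.3, 17.0 and 13.3 CPM in WT CD, 43.1, 49.2 and 42.9 CPM in HoipA-KO CD, 38.0, 34.3 and 36.4 CPM in WT HFD and 35.6, 48.0 and 38.5 CPM in HoipA-KO HFD. WT CD lay below every other library, HoipA-KO CD lay above WT HFD, and the genotypes overlapped on HFD. Nfatc1 rose 1.89-fold in HoipA-KO on CD (log2 0.92, SE 0.26, adjusted p = 0.0195), a call lost without WT CD replicate 2 (0.53, adjusted p = 0.0864) or HoipA-KO CD replicate 2 (0.83, adjusted p = 0.0568). The call was also lost with only the groups compared in the fit (0.98, adjusted p = 0.0509). On HFD the log2 difference was 0.19 (SE 0.22, adjusted p = 0.588).

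Oscar was at or close to the floor in most libraries. Its counts were 4, 1 and 45 in WT CD, 2, 4 and 3 in HoipA-KO CD, 2, 5 and 3 in WT HFD and 13, 5 and 5 in HoipA-KO HFD, where 3 counts are the floor. The 45 counts (0.835 CPM) were in WT CD replicate 3, the library with the male germ cell markers, and their part in the value was not tested. Without that library no difference in Oscar was detectable at this depth between lean genotypes, while each HoipA-KO HFD library lay above each HoipA-KO CD library, as did 3.4% of all genes. The 13 counts were in HoipA-KO HFD replicate 1, which held 1311 CPM of summed epididymal markers, and the part of these was not tested.

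In HoipA-KO against WT on CD, 5 of the 6 tested members were called higher (Dcstamp, Ocstamp, Atp6v0d2, Ctsk and Nfatc1), where 18.9% of all genes tested were called higher. This count was 5 with all 12 libraries and with WT CD replicates 1 and 3 or 2 and 3 as controls. It was 4 without WT CD replicate 2, where Nfatc1 was lost and Acp5 was called lower. Nfatc1 was also lost, leaving 4, without HoipA-KO CD replicate 2 and with only the groups compared. The filter of 10 counts in every library, which Ocstamp did not pass, left 4 as well. The same 5 of the 6 tested members had all 3 HoipA-KO CD libraries above all 3 WT CD libraries, as did 20.1% of all genes. On HFD, 1 of 6 tested members was called higher, where 4.2% of all genes were. On HFD 3 of the 6 tested members (Ocstamp, Atp6v0d2 and Ctsk) lay above WT without overlap, as 20.9% of genes did. Acp5 lay below WT without overlap, as 24% of genes did.

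In WT, HFD raised 4 of 6 tested members (Dcstamp, Ocstamp, Atp6v0d2 and Ctsk), where 9.35% of all genes were called higher. Fitted on the libraries of these groups alone, none of the 4 passed (adjusted p from 0.0861 to 0.138). In 5 of the 6 tested members (these 4 and Nfatc1) all WT HFD libraries lay above all WT CD libraries, as did 17.3% of genes. The Nfatc1 diet difference in WT was 0.57 on the log2 scale (SE 0.25, adjusted p = 0.152). It was called without TMM (0.64, adjusted p = 0.0456) and without WT CD replicate 1 (1.12, adjusted p = 0.00502). With WT CD replicates 2 and 3 as controls it was also called (1.29, adjusted p = 0.00245). In HoipA-KO, HFD against CD gave no called member and no called gene (0% of genes tested), with 415 genes and 1 member (Ocstamp) at an unadjusted p under 0.05, and DESeq2 called 7 genes, none a member. The log2 diet differences of the members in HoipA-KO ran from -0.84 (Ocstamp, SE 0.37) to -0.13 (Ctsk, SE 0.45), and none passed the test.

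Lean HoipA-KO fat exceeded obese WT fat in Dcstamp, Ocstamp and Ctsk. In HoipA-KO CD against WT HFD, 3 of 6 tested members were called higher, where 6.78% of all genes were: Dcstamp (log2 2.27, SE 0.66, adjusted p = 0.0456), Ocstamp (1.89, SE 0.38, adjusted p = 0.0156) and Ctsk (2.54, SE 0.47, adjusted p = 0.0132). Atp6v0d2 stood at 1.83 (SE 0.58, adjusted p = 0.0604), Nfatc1 at 0.35 (SE 0.22, adjusted p = 0.306), Acp5 at -0.38 (SE 0.24, adjusted p = 0.291) and the untested Tm4sf19 at 1.50. In 5 of the 6 tested members (Dcstamp, Ocstamp, Atp6v0d2, Ctsk and Nfatc1) every HoipA-KO CD library lay above every WT HFD library, as did 22.5% of genes, while the groups overlapped in Tm4sf19. The count of 3 called members fell to 0 without WT HFD replicate 2 and to 1 without WT HFD replicate 1 or HoipA-KO CD replicate 2. Leaving out single libraries, the call of Dcstamp was lost in 6 cases (highest adjusted p = 0.143), that of Ocstamp in 3 (highest adjusted p = 0.0662) and that of Ctsk in 1 (adjusted p = 0.0569), and with all 12 libraries in the fit Dcstamp was not called (adjusted p = 0.0943).

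The genotype difference was larger on CD than on HFD for every member that rose, and the difference of the differences was tested as an interaction. It was called for 3 of 6 tested members, where 3.58% of all genes were called lower: Ocstamp (-4.10 on the log2 scale, SE 0.62, adjusted p = 0.0256), Atp6v0d2 (-5.04, SE 0.93, adjusted p = 0.0281) and Ctsk (-3.36, SE 0.71, adjusted p = 0.0363). Dcstamp stood at -3.86 (SE 1.04, adjusted p = 0.0736), Nfatc1 at -0.73 (SE 0.34, adjusted p = 0.229) and Acp5 at 0.12 (SE 0.35, adjusted p = 0.87). The count of members called ran from 0, without WT CD replicate 2 among others, to 4, without WT CD replicate 1, when single libraries were left out. The comparisons above share groups, so they are not independent of each other.

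**Figure D2:**
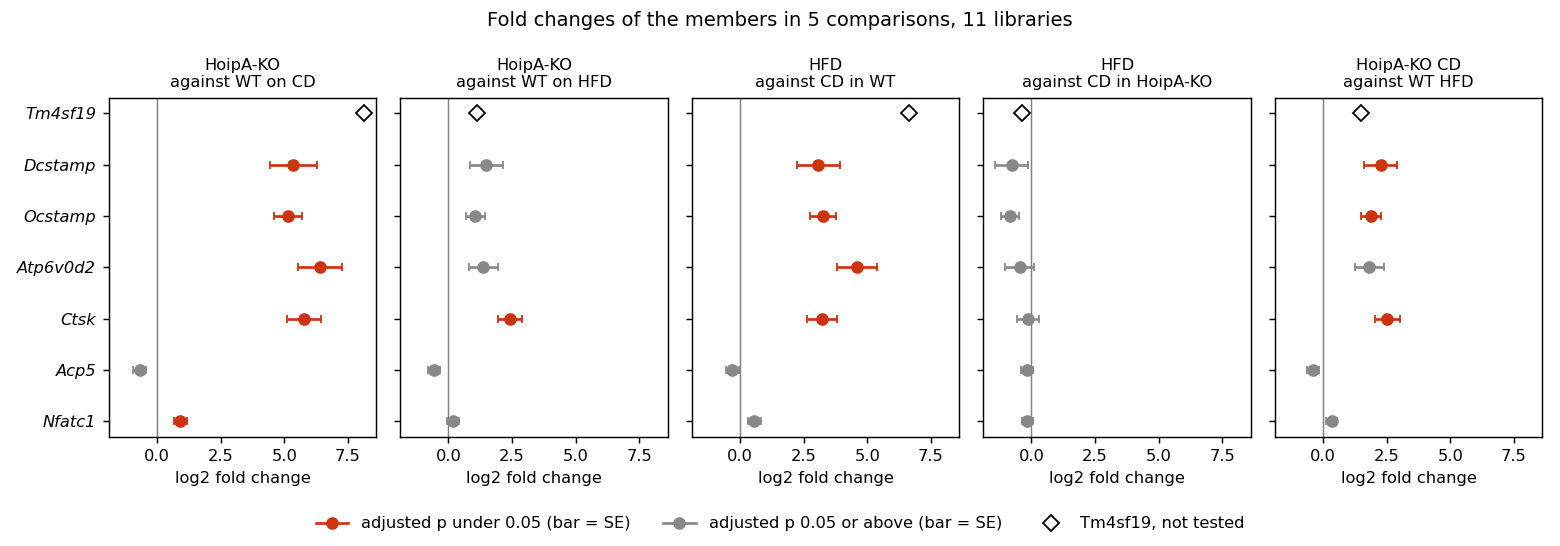
Log2 fold change of 7 members in each of 5 comparisons, from edgeR on 11 libraries; bars are standard errors, red points passed an adjusted p of 0.05, and the open diamonds are Tm4sf19, which was not tested. HoipA-KO against WT on CD shows values from 5.15 to 6.41 for Dcstamp, Ocstamp, Atp6v0d2 and Ctsk, and HFD against CD in HoipA-KO shows all 7 values below 0.

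Set against exon length, the members differed widely from one another. In HoipA-KO CD the mean level was 672 CPM per kilobase for Ctsk (SD 93.6), 263 for Atp6v0d2 (SD 65.5), 106 for Acp5 (SD 18.1), 30.1 for Tm4sf19 (SD 14.3), 11.3 for Dcstamp (SD 4.31), 6.03 for Nfatc1 (SD 0.483) and 1.62 for Ocstamp (SD 0.387), with Oscar at 0.0312 (SD 0.0086; n = 3). In WT CD, Acp5 led at 141 CPM per kilobase (SD 75.0) over Ctsk at 10.9 (SD 4.45) and Nfatc1 at 2.79 (SD 1.35). Acp5 and Ctsk, both osteoclast enzymes, thus changed places in order between lean WT and lean HoipA-KO fat. The lengths were the union of annotated exons, 1.26 kilobases for Tm4sf19 and 7.47 for Nfatc1, and isoforms in use were not measured.

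Macrophage markers moved with the groups. The 9 macrophage markers (Adgre1, Cd68, Csf1r, Itgam, Mrc1, Lyz2, Cd14, Fcgr1 and Mertk) summed to 388 to 592 CPM in WT CD, 1660 to 4976 CPM in WT HFD, 8278 to 11717 CPM in HoipA-KO CD and 5983 to 10038 CPM in HoipA-KO HFD, and none was at 0. Of the 9, 8 were called higher in HoipA-KO on CD (median log2 3.75) and 2 of 9 on HFD (median 1.03), where 18.9% and 4.2% of all genes were. In bulk tissue more cells of a type and more RNA per cell cannot be told apart. Each member was therefore also set against these markers within its own library, as the log2 of CPM + 0.5 minus the mean of the markers on the same scale.

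On that scale Ctsk ran from -0.99 to -0.41 in WT CD, -0.17 to 0.20 in WT HFD, 1.37 to 1.66 in HoipA-KO CD and 1.15 to 1.57 in HoipA-KO HFD. Ctsk relative to the macrophage markers was thus higher in each HoipA-KO library than in each WT library on either diet. Atp6v0d2 ran from -3.10 to -1.03 in WT CD, -0.39 to 0.49 in WT HFD, 0.82 to 1.08 in HoipA-KO CD and 0.41 to 0.78 in HoipA-KO HFD, and WT HFD overlapped HoipA-KO HFD. Nfatc1 went the other way, from -0.69 to 0.02 in WT CD to -3.11 to -2.86 in HoipA-KO CD, and so did Acp5, from 2.78 to 3.81 in WT CD to -1.13 to -0.28 in HoipA-KO CD. Tm4sf19, Dcstamp, Ocstamp and Oscar are not compared on this scale, because some or all of their WT CD levels lay below the added 0.5 CPM. No test was run on these differences.

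**Figure D3:**
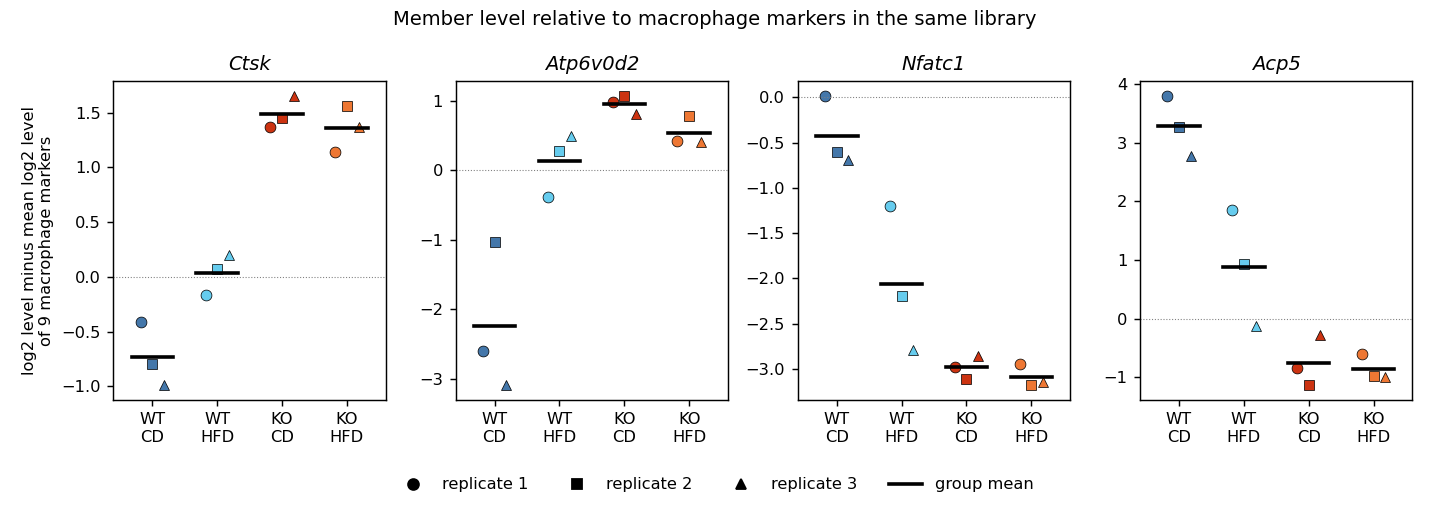
Level of Ctsk, Atp6v0d2, Nfatc1 and Acp5 minus the mean level of 9 macrophage markers in the same library, both as log2 of CPM + 0.5; points are libraries and bars group means (n = 3), and 0 (dotted where in range) means equal to the marker mean. Ctsk sits at or above 1.15 in all HoipA-KO libraries and at or below 0.20 in all WT libraries, while Nfatc1 and Acp5 are highest in WT CD.

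Other cell types moved as well. Over all genes tested, 18.9% were called higher and 18.8% lower on CD, and 4.2% higher and 7.62% lower on HFD. Of 8 markers of lipid-associated macrophages, 7 were called higher on CD and 3 on HFD in HoipA-KO. Of 10 adipocyte markers, 9 were called lower on CD and 10 on HFD, with summed levels of 6086 to 9208 CPM in HoipA-KO CD against 13895 to 49304 CPM in WT CD. Fibroblast and progenitor markers were called higher for 5 of 8 on CD and by edgeR 0 of 8 on HFD, with 3 at an unadjusted p under 0.05 (summed levels 1171 to 2012 CPM in WT CD and 5552 to 7517 CPM in HoipA-KO CD), and mast cell markers for 6 of 7 on CD and 2 of 7 on HFD. The markers of osteoblasts and bone matrix summed to 6.36 to 14.3 CPM in all libraries, and 3 of their 6 genes passed the filter. The part of these shifts in the values of the members was not tested.

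The ligands and receptors that start osteoclast formation split. Of 7 genes for RANKL and CSF1 ligands and receptors, 3 rose in HoipA-KO on CD and none fell (median log2 0.48, against -0.055 over all genes). Of all genes tested, 18.9% were called higher on CD. Tnfrsf11a, encoding RANK, the receptor for RANKL, rose with a log2 of 3.96 (adjusted p = 0.000467), and on HFD stood at 0.98 (adjusted p = 0.0804). Csf1r, encoding the CSF1 receptor, rose by 3.55 on the log2 scale (adjusted p = 0.000565), and its ligand Csf1 by 0.84 (adjusted p = 0.0153). Tnfsf11, encoding RANKL itself, had a mean of 0.371 CPM and stood at 0.48 (adjusted p = 0.673). Tnfrsf11b, encoding the decoy receptor osteoprotegerin, stood at -0.0078 on CD with adjusted p = 0.994, and on HFD was lower at -1.84 (adjusted p = 0.0466), where 7.62% of all genes were called lower. The call of Tnfrsf11b on HFD was lost with all 12 libraries (-1.86, adjusted p = 0.0762) and with no filter on low counts (-1.83, adjusted p = 0.0532).

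All 10 of 10 genes of immune receptor co-stimulation rose on CD (median log2 4.43) and 3 of 10 on HFD (median 1.26, against 0.058 over all genes). The shares of all genes called higher were 18.9% on CD and 4.2% on HFD. Trem2, a lipid-binding receptor, rose on CD by 6.20 (log2) and on HFD by 1.69, and its adaptor Tyrobp, which carries the ITAM, by 5.04 and 1.50 (adjusted p on HFD 0.0424 and 0.0452). With all 12 libraries neither was called on HFD (adjusted p = 0.0884 for Trem2 and 0.0817 for Tyrobp). Among transcription factors of osteoclasts, 11 of 12 rose on CD and 4 of 12 on HFD. Mitf, a factor that drives Ctsk and Acp5 in osteoclasts, rose by 2.38 on CD (adjusted p = 0.00581), against 0.83 on HFD (adjusted p = 0.196). Fos, an AP-1 subunit, rose by 2.75 on CD (adjusted p = 0.00087).

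Of 5 genes that repress osteoclast differentiation, 3 rose on CD and 1 on HFD. Among all genes, 18.9% were called higher on CD, and on HFD 4.2% higher and 7.62% lower. Irf8, which is also a macrophage gene, rose on CD by 2.89 (log2, adjusted p = 0.000452). Of 8 genes of the NFAT family and calcineurin other than Nfatc1, 4 rose on CD (median log2 0.26) and on HFD 1 rose and 1 fell. Nfatc2 rose by 2.46 on CD (adjusted p = 0.000493), more than Nfatc1 at 0.92, while the calcineurin subunit Ppp3r1 stood at 0.0085 (adjusted p = 0.982).

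Of 17 further genes of macrophage fusion, 14 rose on CD (median log2 2.79) and 2 on HFD (median 0.82). For all genes the shares called higher were 18.9% and 4.2%. Cd44, a hyaluronan receptor, rose by 4.72 (log2, adjusted p = 0.000598) on CD, the tetraspanin Cd9 by 3.58 (adjusted p = 0.000498) and the integrin Itgb3 by 2.79 (adjusted p = 0.000574). The other L6 family genes did not follow Tm4sf19. Tm4sf1 stood at -0.30 on CD (adjusted p = 0.467), Tm4sf4 at -1.39 (adjusted p = 0.518) and Tm4sf5 at 1.07 (adjusted p = 0.0773), Tm4sf20 did not pass the filter, and 0 of 3 tested were called by edgeR or DESeq2 on either diet, with 1 (Tm4sf5) at an unadjusted p under 0.05 on each. With WT CD replicates 2 and 3 as controls, 1 was called on CD.

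The resorption machinery was mixed. Of 12 tested genes, 4 rose and 1 fell on CD (median log2 0.81), and 4 rose on HFD (median 0.91). Among all genes, 18.9% were called higher and 18.8% lower on CD, and 4.2% higher on HFD. Tcirg1, the osteoclast a3 subunit of the proton pump, rose on CD by 4.18 (log2) (adjusted p = 0.000452) and 1.36 on HFD (adjusted p = 0.0362), where with all 12 libraries the call was lost (adjusted p = 0.0636). Its chloride partner Clcn7 stood at 1.21 on CD (adjusted p = 0.0507) and with all 12 libraries was called higher (1.54, adjusted p = 0.0337). Mmp9, a gelatinase, stood at 0.96 on CD (adjusted p = 0.274), while HFD mice showed a rise of 2.81 (adjusted p = 0.0242). Car2, carbonic anhydrase II, was lower on CD at -3.86 (adjusted p = 0.0136), but its WT CD levels ran from 3.44 to 144 CPM. Without WT CD replicate 2, the library highest in epididymal markers, the Car2 value was 0.57 (adjusted p = 0.172). Calcr, the calcitonin receptor of mature osteoclasts, was at 0 in all 9 libraries outside WT CD.

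Among 13 cathepsins other than Ctsk, 6 rose on CD (median log2 2.21) and 3 on HFD, where 18.9% and 4.2% of all genes were called higher. Ctss rose on CD by 5.53 (log2) (adjusted p = 0.000452) and 1.57 on HFD (adjusted p = 0.0389), and Ctsl by 2.72 and 1.23 (adjusted p = 0.000764 and 0.032). The abundant lysosomal proteases Ctsb and Ctsd rose by 2.74 and 2.71 on CD. With all 12 libraries in the fit neither Ctss nor Ctsl was called on HFD (adjusted p = 0.0701 and 0.0597), and the counts called in these lists on HFD were 0 to 3 for each list, the cathepsins falling from 3 to 0 and the fusion genes from 2 to 0. The HFD calls of Tnfrsf11b, Trem2, Tyrobp, Tcirg1, Mmp9, Ctss and Ctsl were each lost when WT HFD replicate 1, WT HFD replicate 2 or HoipA-KO HFD replicate 2 was left out.

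**Figure D4:**
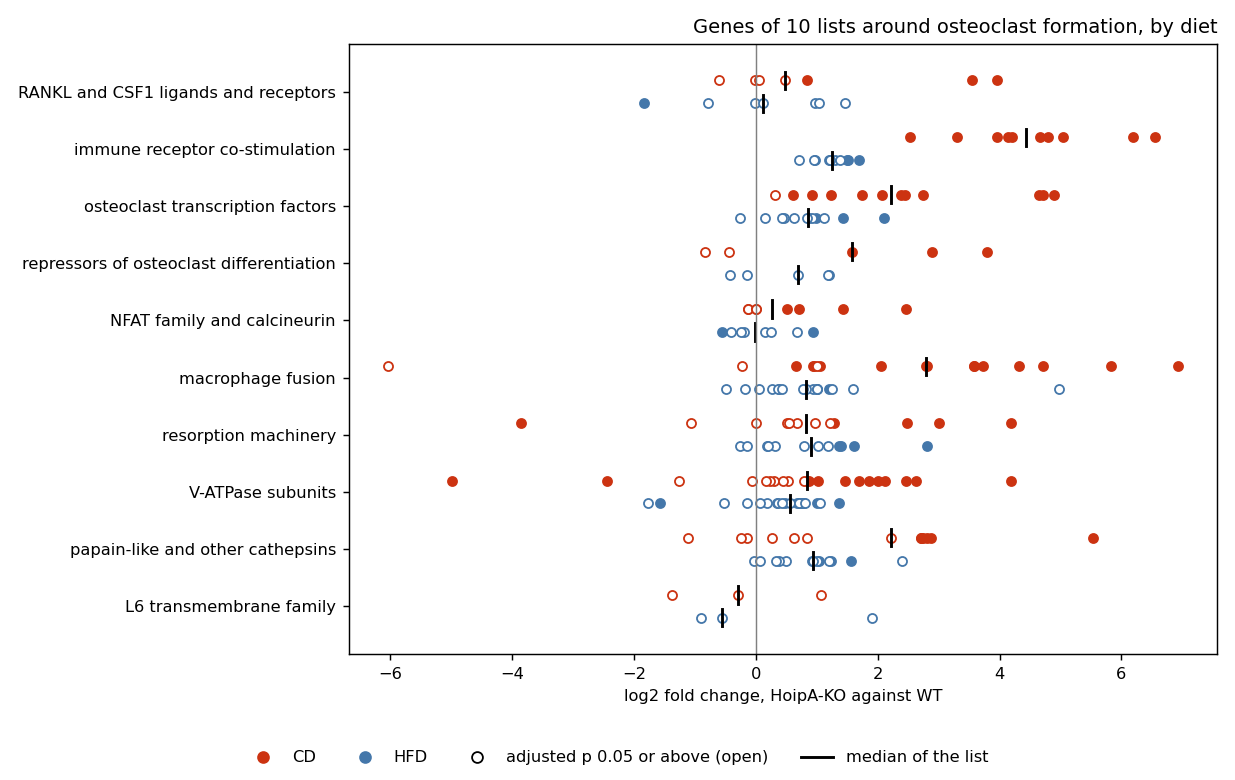
Log2 fold change of HoipA-KO against WT for every tested gene of 10 lists, on CD (red) and HFD (blue), from edgeR on 11 libraries; filled points passed an adjusted p of 0.05 and black ticks are list medians. On CD the co-stimulation genes are all filled and lie at a median of 4.43, while the L6 family has no filled point.

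The proton pump gives a comparison inside 1 complex. Of 21 tested V-ATPase genes other than Atp6v0d2, 11 rose and 2 fell on CD (median log2 0.84). There 18.9% of all genes were called higher and 18.8% lower. On HFD 5 rose and 1 fell (median 0.56), where 4.2% of all genes were called higher and 7.62% lower. With all 12 libraries none of these was called on HFD. Atp6v0d1, the d subunit used by most cells, rose on CD by 0.86 (log2) (adjusted p = 0.00977) and stood at 0.35 on HFD (adjusted p = 0.206), beside 6.41 and 1.38 for Atp6v0d2. Within each library the log2 ratio of Atp6v0d2 to Atp6v0d1 was -4.76, -2.98 and -4.69 in WT CD, -1.03, 0.23 and 1.13 in WT HFD, 1.75, 1.93 and 1.41 in HoipA-KO CD and 1.15, 1.77 and 1.20 in HoipA-KO HFD. The ratio was higher in every HoipA-KO library than in every WT library, and it was above 0 in 8 of 12 libraries. It was not tested.

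**Figure D5:**
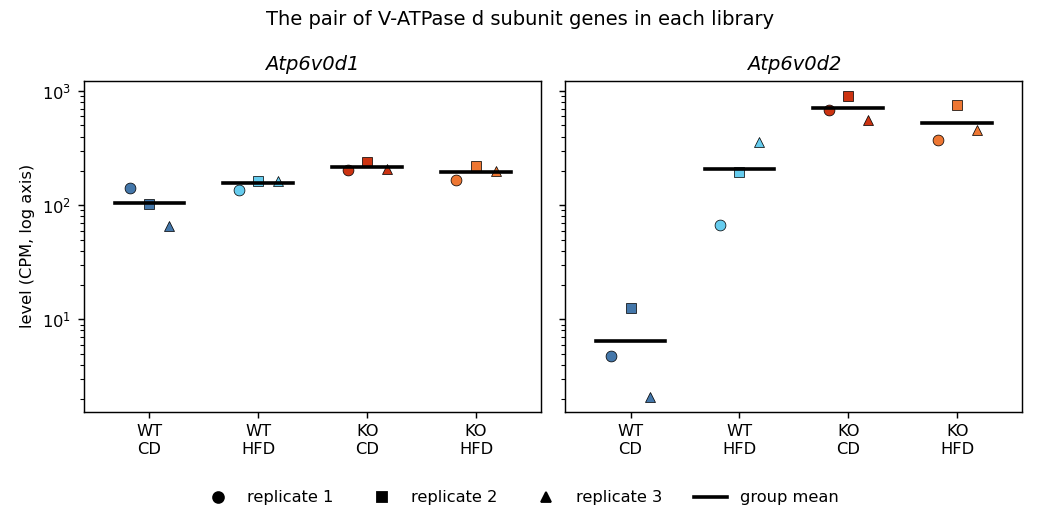
Level of Atp6v0d1 and Atp6v0d2 in every library, in CPM on a shared log axis; points are libraries and bars group means (n = 3). Atp6v0d1 stays between 66.3 and 237 CPM, while Atp6v0d2 runs from 2.10 CPM in WT CD to 905 CPM in HoipA-KO CD.

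The genes whose levels were most alike were found by Pearson's r of log2(CPM + 1) over the 12 libraries, which share the group differences, so r is given as a description. Ctsk was closest to Fcer1g (r = 0.998), the ITAM adaptor of Fc receptors, Atp6v0d2 to Lcp1 (0.995), Cd84 (0.995) and Gpnmb (0.994), and Ocstamp to Panx1 (0.993). Tm4sf19 was closest to Gm20056 (0.995), Taok3 (0.994) and St18 (0.993), and Dcstamp to 2210406H18Rik (0.988). Nfatc1 was closest to Mef2d (0.990), Acp5 to 2210408F21Rik (0.965) and Oscar to Dock3 (0.989). Oscar held 45 counts in WT CD replicate 3, the library with the male germ cell markers, and at most 13 in any other. Its r therefore rests mainly on that library. The highest median r over the 8 members belonged to Itgb2 (0.976), the shared beta chain of leukocyte integrins. After the group means were removed, Tm4sf19 and Dcstamp still moved together over the 12 libraries (r = 0.83), whereas Acp5 went with Nfatc1 (0.85) and not with Ctsk (0.28). Acp5 and Nfatc1 both spread most in WT CD (SD 152 and 10.1 CPM). WT CD replicates 2 and 3 were highest in epididymal and male germ cell markers, and their part in this r was not tested.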

How the data were processed

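Polyadenylated RNA of GWAT was sequenced in 12 libraries, 4 groups of 3. Reads were trimmed by the authors (Trim Galore 0.6.7), aligned with STAR 2.7.10a and quantified genes with Salmon 1.5.2; the deposited values are estimated counts per gene, not normalized. The submitters' processing notes name GRCm38, whereas the methods text names a human build, so positions are given from RefSeq GRCm38.p6 only. Deposited DESeq2 1.38.1 comparison tables were not used.

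Estimated counts were rounded to whole numbers, and 18427 genes passed edgeR 4.0.16's filterByExpr. TMM scaling and the quasi-likelihood test were fitted over group means with no block, on 11 libraries, without WT CD replicate 3, which the authors' comparisons also leave out. Levels are CPM with TMM over 12 libraries. No paired block was used in the main fit. Deviations from group means correlated at -0.48 to 0.37 between libraries of the same replicate number, and at -0.42 to 0.48 between different numbers. The WT CD libraries left in the fit mirror each other by construction, so this check cannot tell whether the numbers mark pairs. DESeq2 1.42.0 was an alternative. The tests were checked on simulated data. Exon lengths are from GENCODE M21.

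The members and gene lists were chosen with earlier results of these data known. All 8 members are named; from each list, the 2 genes of highest mean CPM could be named besides a fixed set of pathway genes (1 of them is not reported here), and for likeness the 3 genes of highest r per member and the 5 of highest median r. Settings tried were other scaling, other filters, 12 libraries, the replicate block, only the groups compared, DESeq2 and each library left out. The floor covers counting error only, whereas the SEs include the spread estimated between pools.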

Additional observations from a re-analysis of the deposited data

Results flagged for a closer look

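The genotype effect differed between diets, by the interaction term (quasi-likelihood test of edgeR, adjusted by Benjamini-Hochberg), for Ocstamp (-4.10 on the log2 scale, adjusted p = 0.0256), Atp6v0d2 (-5.04, adjusted p = 0.0281) and Ctsk (-3.36, adjusted p = 0.0363). In each of these the diet difference in HoipA-KO was not called (Ocstamp -0.84, SE 0.37, unadjusted p = 0.0482 by edgeR), whereas WT rose with HFD. The calls were each lost without 7 (Ocstamp) or 8 (Atp6v0d2 and Ctsk) of the 11 libraries left out singly, and the values kept their sign, from -4.57 to -3.76 for Ocstamp, -5.89 to -4.23 for Atp6v0d2 and -3.76 to -2.71 for Ctsk. Without WT CD replicate 2, the library highest in epididymal markers, the adjusted p was 0.0848, 0.0909 and 0.117.

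Among the libraries outside the main comparisons, WT CD replicate 3 held 46 counts of Tm4sf19, against 2 and 10 in WT CD replicates 1 and 2. The same library held 45 counts of Oscar, against 4 and 1. It also held 6737 CPM of summed male germ cell markers, and their part in these counts was not tested.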

How the results depend on the processing

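Of 849 recomputed values of the members, 753 were counted as unchanged. For tested members this means the same direction and side of the threshold. For the untested Tm4sf19 it means a move smaller than the replicate spread, whatever the sign. Among tested members 53 values lost and 25 gained a call and 8 changed sign, and 10 values of Tm4sf19 moved by more than the replicate spread. The rises of Dcstamp, Atp6v0d2 and Ctsk in HoipA-KO on CD were called under every alternative run, and that of Ocstamp under every one but the filter of 10 counts in every library, which Ocstamp did not pass. With all 12 libraries the genes called were 503 for HoipA-KO against WT on HFD (2179 with 11 libraries) and 999 for HoipA-KO CD against WT HFD (2920). With the replicate block they were 1502 for HFD against CD in WT (2731) and 377 for the interaction (721); the block also ended the interaction call of Ctsk (adjusted p = 0.0777) and gave one for Dcstamp (adjusted p = 0.0471) and a call of Atp6v0d2 in HoipA-KO CD against WT HFD (adjusted p = 0.0324), and it changed no other call of a member. Same-numbered libraries correlated at -0.48 to 0.37 and differently numbered ones at -0.42 to 0.48, which cannot tell whether the numbers mark pairs. With only the groups compared, 4208 genes were called for the genotypes on CD (6947), 4610 for HoipA-KO CD against WT HFD, and 0 genes and 0 members for HFD against CD in WT. By DESeq2, genes called were 4410 for the genotypes on HFD, with 3 members in place of 1, 4551 for HFD in WT, 7 for HFD in HoipA-KO, 4956 for HoipA-KO CD against WT HFD and 2350 for the interaction. With WT CD replicates 2 and 3 as controls, chosen after seeing the data, HFD in WT gave 7046 genes. The causes of these shifts were not tested.

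When single libraries were left out, the counts ran from 1045 to 5985 genes and 2 to 4 members for HFD in WT, 279 to 3797 genes and 0 to 1 member for the genotypes on HFD, 493 to 4416 genes and 0 to 4 members for HoipA-KO CD against WT HFD, and 1 to 3668 genes and 0 to 4 members for the interaction. The Ctsk difference between diets in HoipA-KO changed sign, from -0.46 to 0.12, and so did Acp5 for HFD in WT (-0.65 to 0.19) and the interaction (-0.35 to 0.48; -0.0117 without HoipA-KO HFD replicate 2, -0.16 with 12 libraries). The untested Tm4sf19 also changed sign for HFD in HoipA-KO, from -1.12 to 0.037, the latter without HoipA-KO CD replicate 2. With WT CD replicates 2 and 3, Acp5 stood at 0.11 for the genotypes on CD and 0.52 for HFD in WT.

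Among pathway genes, the values on CD that changed sign were those of Ppp3r1 (-0.042 with DESeq2 and with its size factors, -0.050 without a filter, -0.059 with the stricter filter and -0.14 with protein-coding genes; -0.19 to 0.10 with single libraries left out), Tnfrsf11b (0.012 without TMM, 0.26 with the replicate block and 0.040 with only the groups compared; -0.42 to 0.39), Tm4sf1 (0.40 with WT CD replicates 2 and 3; -0.66 to 0.19), Car2 (-4.84 to 0.57) and Tm4sf4 (-2.38 to 4.71). None of these but Car2 was called. Low counts of Tm4sf19, Dcstamp and Ocstamp in WT CD limit the precision of their folds.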
